A study of Homo sapiens with 6 samples.

Results

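AP-1 is a dimeric transcription factor assembled from proteins of the FOS and JUN families and their relatives, and the 10 genes described here are FOS, FOSB, FOSL1, FOSL2, JUN, JUNB, JUND, BATF3, MAFF and MAPK8. They were taken by name from the deposited table, where all 10 were found among 20030 genes, and each passed the filter on low values. All but MAPK8 encode basic leucine zipper (bZIP) proteins. MAPK8 encodes the kinase JNK1, which phosphorylates JUN, so it belongs to the pathway and not to the AP-1 dimer. The data came from RNA sequencing of T24, a human bladder cancer cell line, with 3 libraries of the group labelled NC and 3 of the group labelled sh-circRIMS1. By its label the second group had circRIMS1, a circular transcript of the RIMS1 gene, knocked down. The labels give no further treatment, clone or time, do not say what the NC cells received, and do not say whether the libraries came from separate cultures. The study's design asked which messenger RNAs differed between the groups.

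FOS proteins cannot form stable dimers with each other and pair with JUN proteins, which can also pair among themselves. The dimers bind the TRE and CRE elements of DNA. Many FOS and JUN genes are immediate early genes, transcribed within minutes of a growth or stress signal without new protein synthesis. MAF proteins bind longer elements that contain a TRE or CRE core, and small MAF proteins such as MAFF lack a transactivation domain. In epithelial cancer cells FOSL1 is known as a partner of JUN in migration and invasion.

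The values were FPKM (fragments per kilobase of transcript, scaled to the mapped fragments of the library), which are already divided by depth and length. Steps among low values placed the depth of the other 5 libraries at 1.01 to 1.16 times that of NC replicate 1, and absolute depth is unknown. Across tested genes, Pearson's r between libraries was 0.997 within NC and between sh-circRIMS1 replicates 1 and 3. It was 0.974 and 0.975 when sh-circRIMS1 replicate 2 was set against these, and a second principal component with 18.1% of the variance set replicate 2 apart. Values without replicate 2 are therefore given beside the main results. Keratins 7, 8 and 18 were abundant in every library, with 111 FPKM as the lowest of these values, while EPCAM and CDH1, markers of differentiated epithelium, did not exceed 0.919 and 0.0971 FPKM. Of 6 epithelial markers 3 were tested and 2, KRT7 and KRT18, were lower in sh-circRIMS1 (298 against 436 and 372 against 516 FPKM). KRT8 also lay lower without overlap (199 against 310 FPKM) but did not pass (limma adjusted p = 0.09). Below the filter, EPCAM (0.73 against 0.37 FPKM) and KRT19 (0.0588 against 0 FPKM) lay higher in sh-circRIMS1 without overlap, and CDH1 overlapped. The 8 fibroblast markers were low, and their sum was 0.178 to 0.235 FPKM in NC and 0.733 to 1.04 FPKM in sh-circRIMS1. Most of this came from COL1A1, with 0.132 and 0.723 FPKM on average. COL1A2 also did not overlap, with 0 and 0.0262 FPKM on average, while the groups of the other fibroblast markers overlapped. The part of these markers in the results below was not tested.

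The promoters of AP-1 genes are known to carry AP-1 and CREB/ATF sites through which the family acts on itself, so the bases before the annotated start are shown first. RefSeq windows (GRCh38.p14, 250 bases before to 50 after the start) were found for 8 of the 10 genes, with 2 windows for MAFF. FOSL1 and BATF3 are named only. The hexamer TGACGT, the core of the CRE (both strands searched), lay in the windows of 6 of these 8 genes, FOS, FOSB, FOSL2, JUND, MAFF and MAPK8, against 7.98% of all 35116 windows. The full CRE, TGACGTCA, which contains that hexamer on both strands, lay in those of JUND and MAFF (1.85% of all windows). The TRE, TGACTCA, lay only in that of FOSL2 among the 8 genes (4.95% of all windows). The JUN window held the variant TGACATCA, known as the AP-1 site through which JUN acts on its own promoter (2.61% of all windows). The JUNB window held none of these letters and is shown at its TATAAA (11.5% of all windows). The CArG box, bound by SRF, was found in none of the 8 genes' windows (1.29% of all windows), and the STAT-type element TTCNNNGAA in that of MAFF (7.66%). Bases farther from the start were not searched, so an absence holds for these windows only. Matches are descriptions of letters and not evidence of binding. Capitals mark the matched motif in each stretch, written 5′ to 3′ on the gene's strand.
JUN: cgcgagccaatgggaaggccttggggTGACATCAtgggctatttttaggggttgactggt
JUND: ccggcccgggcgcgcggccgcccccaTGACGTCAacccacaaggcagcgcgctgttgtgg
MAFF: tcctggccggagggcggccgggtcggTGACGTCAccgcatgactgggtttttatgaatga
FOS: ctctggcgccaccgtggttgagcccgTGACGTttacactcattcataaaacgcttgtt
FOSB: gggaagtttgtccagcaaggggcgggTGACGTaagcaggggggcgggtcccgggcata
FOSL2: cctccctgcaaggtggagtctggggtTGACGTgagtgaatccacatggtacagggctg
MAPK8: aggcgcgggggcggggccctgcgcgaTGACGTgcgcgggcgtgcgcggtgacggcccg
JUNB: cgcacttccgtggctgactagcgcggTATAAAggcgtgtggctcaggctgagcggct
The stretch of JUN is chr1:58784081-58784140 on the minus strand and that of JUND chr19:18281789-18281848 on the minus strand. The others are on the plus strand, at chr22:38201914-38201973 for MAFF, chr14:75278738-75278795 for FOS, chr19:45467910-45467967 for FOSB and chr2:28392766-28392823 for FOSL2. Those of MAPK8 and JUNB are chr10:48306612-48306669 and chr19:12791429-12791485. The hexamer began 64 bases before the start in FOS, 60 in FOSB, 66 in FOSL2, 54 in MAFF and 39 in MAPK8, and the variant of JUN began 67 bases before it. JUND held its CRE 200 bases before the start and a second hexamer match 87 bases before it.

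JUNB, FOSL1, JUND and BATF3 were higher in the sh-circRIMS1 cells, and none of the 10 genes was called lower. In bulk RNA a change in the number of cells that use a gene and a change in RNA per cell cannot be told apart. Counts were read against all 10408 genes tested, those with a mean FPKM of at least 1, of which 25.0% were called higher and 12.7% lower. In the limma fit of log2(FPKM + 0.5), with Benjamini-Hochberg adjustment over all tested genes at 0.05, 4 of the 10 genes were called higher, 0 lower and 6 did not pass. At an unadjusted p under 0.05, 4 were higher and 1, MAPK8, was lower, beside 3225 higher and 1784 lower of the 10408 tested genes. The median change of the 10 genes was 0.24 on the log2 scale, beside 0.06 for all tested genes. Without sh-circRIMS1 replicate 2 the same 4 genes were called higher and 2, JUN and MAPK8, lower, while 36.8% of 10340 tested genes were then called higher and 23.9% lower.

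**Figure D1:**
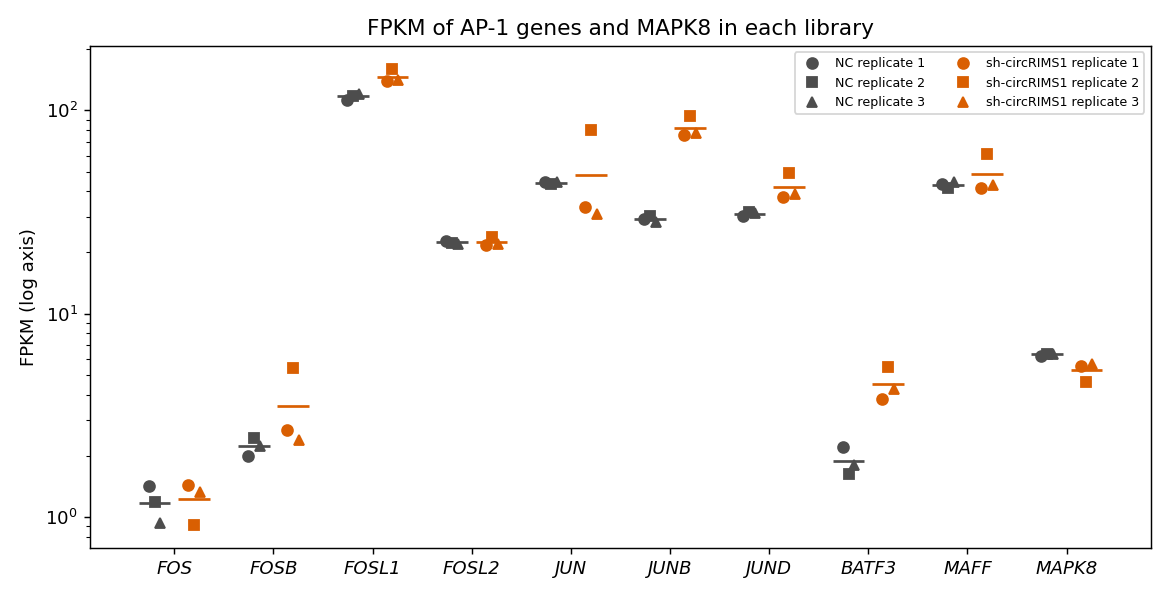
FPKM (log axis) of the 10 genes in each of the 6 libraries, with NC in grey and sh-circRIMS1 in orange, marker shapes for replicates 1 to 3 and horizontal lines at the group means. JUNB and BATF3 separated the groups most widely, and the square of sh-circRIMS1 replicate 2 stood well above the other sh-circRIMS1 libraries for JUN and FOSB.

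Among the JUN family, JUNB, whose protein is a weaker activator than JUN and can restrain it, rose most. The NC libraries had 29.2, 30.2 and 28.2 FPKM, and the sh-circRIMS1 libraries had 75.6, 94.0 and 77.3 FPKM. Every sh-circRIMS1 library lay above every NC library, and the mean rose from 29.2 ± 1.01 to 82.3 ± 10.2 FPKM (SD, n = 3 each), to 2.82 times the NC level. On the log2 scale JUNB rose by 1.47 (standard error 0.09, 95% interval 1.26 to 1.69, limma adjusted p = 0.000145). Of all called genes, 187 rose further. Without replicate 2 the change was 1.37.

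JUND, the family member usually present in resting cells, rose less. Its FPKM was 30.1, 31.6 and 31.3 in NC and 37.6, 49.3 and 39.0 in sh-circRIMS1, again with no overlap between the groups. JUND rose by 0.42 on the log2 scale (standard error 0.11, limma adjusted p = 0.0207). The call was lost when any 1 of the NC libraries was left out, over all alternatives the adjusted p ran from 0.000107 to 0.0792, and the change stayed between 0.30 and 0.50.

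JUN, the strongest activator of the family and a target of JNK, did not move in one direction. It had 44.5, 43.3 and 44.3 FPKM in NC and 33.5, 79.9 and 30.8 in sh-circRIMS1 replicates 1, 2 and 3. Replicates 1 and 3 stood at 76.2% and 70.0% of the NC mean, below every NC library, whereas replicate 2 stood at 181.5% and above every NC library. The fitted log2 change of -0.01 had a wide 95% interval, -0.82 to 0.79 (limma adjusted p = 0.978). Without replicate 2 JUN was called lower, with a change of -0.45 and a standard error of 0.04 (limma adjusted p = 1.57e-05, within a range of 1.57e-05 to 0.994 over all alternatives). Without replicate 1 or replicate 3 the fitted change was 0.17 or 0.23. Replicate 2 exceeded the mean of the other sh-circRIMS1 libraries by 1.30 on the log2 scale, and 0.404% of tested genes, JUN included, exceeded it by as much.

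The make-up of the JUN family by FPKM, a per-length level, therefore shifted in all 3 sh-circRIMS1 libraries. Of the summed JUN, JUNB and JUND FPKM, JUNB made up 28.2%, 28.7% and 27.2% in NC and 51.5%, 42.1% and 52.5% in sh-circRIMS1. JUN made up 42.8%, 41.2% and 42.7% in NC and 22.9%, 35.8% and 21.0% in sh-circRIMS1. Neither share overlapped between the groups, replicate 2 included, and the exact two-sided permutation p was 0.1 for each, the smallest that 3 against 3 libraries can give. JUN was thus the most abundant JUN family transcript in each NC library and JUNB in each sh-circRIMS1 library. The family sum was 104, 105 and 104 FPKM in NC and 147, 223 and 147 FPKM in sh-circRIMS1 (exact permutation p = 0.1). Of 9 shares and sums compared in the JUN and FOS families, 7 reached this smallest p, which is 0.129 after Benjamini-Hochberg adjustment. The shares of a family add up to the whole, so these comparisons are not independent.

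**Figure D2:**
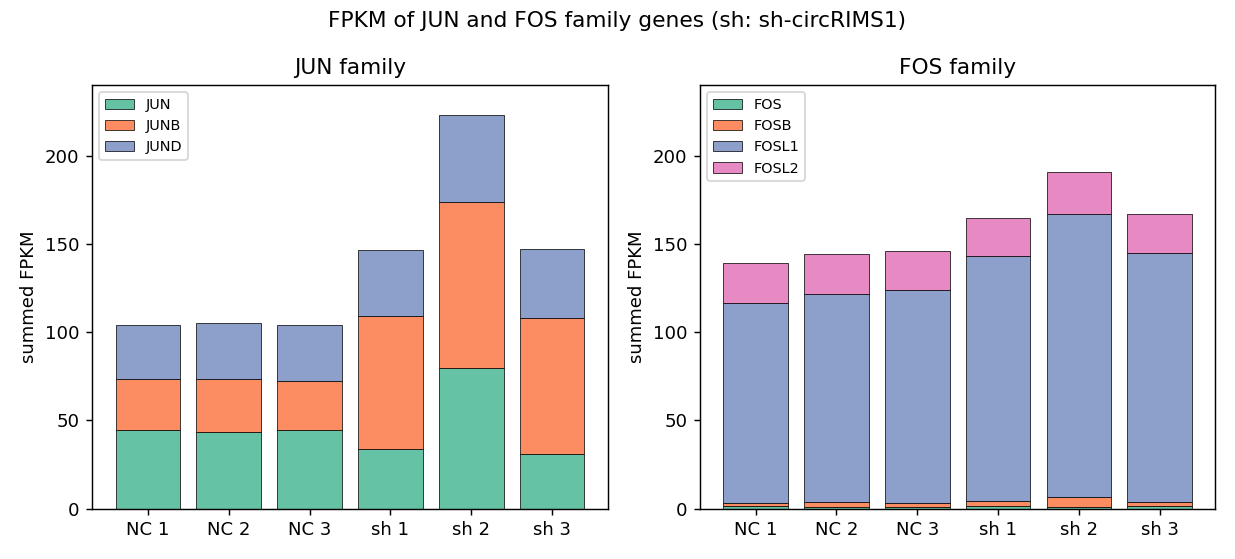
Summed FPKM of the JUN family (left) and FOS family (right) in each library, with 1 bar per library and coloured segments for the genes. The JUNB segment is the largest of the JUN family in the 3 sh-circRIMS1 bars, the JUN family sum is highest in sh-circRIMS1 replicate 2 at 223 FPKM, and FOSL1 fills most of every FOS family bar.

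In the FOS family FOSL1, which encodes FRA1, was by far the most abundant transcript. Its FPKM was 113, 118 and 121 in NC and 139, 160 and 141 in sh-circRIMS1, and the groups did not overlap. FOSL1 rose by 0.32 on the log2 scale with a standard error of 0.07, to 125.2% of the NC level (limma adjusted p = 0.0121). The call was lost without NC replicate 1, without NC replicate 2 and under median-of-ratios scaling, with adjusted p values between 0.000109 and 0.0603 over all alternatives. FOSL1 supplied 81.9% ± 0.764 of the summed FOS, FOSB, FOSL1 and FOSL2 FPKM in NC and 84.3% ± 0.173 in sh-circRIMS1 (SD, n = 3 each; exact permutation p = 0.1).

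FOSL2, which encodes FRA2, lay close to its NC level. Its FPKM was 22.9, 22.4 and 22.1 in NC and 21.7, 23.8 and 22.1 in sh-circRIMS1. On the log2 scale the fitted change was 0.00, with -0.13 to 0.14 as the 95% interval (limma adjusted p = 0.963). Its share of the FOS family FPKM was 15.7% ± 0.648 in NC and 13.0% ± 0.415 in sh-circRIMS1 (SD, n = 3 each; exact permutation p = 0.1). A share also depends on the other family members, so it is no separate result about the FOSL2 level.

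The classical serum-induced genes FOS and FOSB were low in every library. FOS, the first FOS gene to appear after a growth signal, had 1.41, 1.18 and 0.934 FPKM in NC and 1.44, 0.914 and 1.33 FPKM in sh-circRIMS1, with overlapping groups (limma adjusted p = 0.859). FOSB had 1.99, 2.44 and 2.24 FPKM in NC and 2.68, 5.42 and 2.39 FPKM in sh-circRIMS1. Replicate 2 stood at 244% of the NC mean for FOSB and at 77.7% for FOS. For FOSB the log2 change was 0.48, with -0.14 to 1.11 as its 95% interval (limma adjusted p = 0.189), and without replicate 2 it was 0.16. The pseudocount of 0.5 shrinks the changes of such low genes.

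BATF3 encodes a bZIP protein that lacks a transactivation domain, pairs with JUN proteins and is required for a class of cross-presenting dendritic cells. Its FPKM was 2.21, 1.62 and 1.80 in NC and 3.82, 5.47 and 4.26 in sh-circRIMS1, with no overlap. BATF3 rose by 1.07 on the log2 scale with a standard error of 0.15, to 2.40 times the NC level (limma adjusted p = 0.00218), and by 0.94 without replicate 2. The dendritic and leukocyte markers CLEC9A, XCR1, FLT3 and CD3E were listed at 0 in all 6 libraries, and PTPRC, the leukocyte antigen CD45, did not exceed 0.0494 FPKM. The 11 markers summed to 3.27 to 4.18 FPKM in NC and 4.81 to 4.93 FPKM in sh-circRIMS1, mostly from ZBTB46 with 2.89 and 3.45 FPKM on average (limma adjusted p = 0.139). CD14 was the next highest, with at most 1.26 FPKM. ITGAX, a marker of dendritic cells, had 0.0184, 0.00787 and 0 FPKM in NC and 0.202, 0.441 and 0.295 FPKM in sh-circRIMS1. ITGAM, a marker of myeloid cells, was listed at 0 in NC and had 0.0373, 0.00952 and 0.0448 FPKM in sh-circRIMS1. Both lay below the filter with no overlap between the groups, and their part in the BATF3 result was not tested.

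MAFF, a small MAF protein, had 43.2, 41.3 and 44.4 FPKM in NC and 41.5, 60.7 and 43.1 FPKM in sh-circRIMS1. Only replicate 2 lay outside the NC range, at 141% of the NC mean. The fitted log2 change was 0.15, with an interval of -0.19 to 0.49 (limma adjusted p = 0.432), and -0.02 without replicate 2.

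The kinase gene MAPK8 lay lower in each sh-circRIMS1 library than in any NC library. Its FPKM was 6.22, 6.35 and 6.35 in NC and 5.51, 4.62 and 5.68 in sh-circRIMS1, to 83.6% of the NC level. The log2 change of -0.24 had a standard error of 0.08 and did not pass (limma adjusted p = 0.0620, between 0.0202 and 0.165 over all alternatives). It was called lower without replicate 2, at -0.16, and also with array weights, quantile normalization and median-of-ratios scaling. Among the 10 genes, the groups did not overlap in 4 with sh-circRIMS1 higher, where 35.5% of tested genes showed this, and in 1 with sh-circRIMS1 lower, where 22.0% did.

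**Figure D3:**
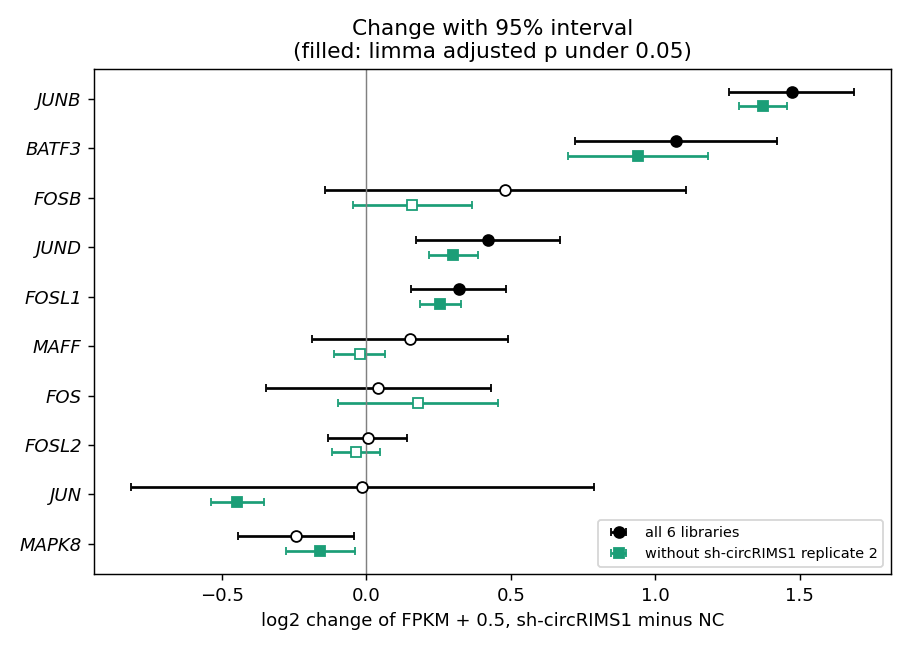
Log2 change of FPKM + 0.5, sh-circRIMS1 minus NC, for the 10 genes with 95% intervals from limma, with all 6 libraries (black circles) and without sh-circRIMS1 replicate 2 (green squares). Filled symbols mark an adjusted p under 0.05. The interval of JUN spans -0.82 to 0.79 with all libraries and lies below 0 without replicate 2. FOSL1, JUNB, JUND and BATF3 are filled in both.

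Replicate 2 was the highest of the 3 sh-circRIMS1 libraries for 8 of the 10 genes and the lowest for FOS and MAPK8. Over all tested genes it was the highest for 45.7% and the lowest for 43.5%. Its distance from the other sh-circRIMS1 libraries was 1.30 for JUN, 0.97 for FOSB and 0.52 for MAFF on the log2 scale, against a median absolute distance of 0.21 over all tested genes. What set this library apart was not tested.

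In order of level, FOSL1 was highest in every library. In NC it was followed by JUN with 44.0 ± 0.617 and MAFF with 43.0 ± 1.55 FPKM, which did not differ beyond their spread, and by JUND with 31.0 ± 0.800 and JUNB with 29.2 ± 1.01 FPKM (SD, n = 3 each), whose values overlapped. FOSL2, MAPK8, FOSB, BATF3 and FOS came next with 22.5, 6.31, 2.22, 1.88 and 1.18 FPKM, of which FOSB and BATF3 were within their spread of each other. In sh-circRIMS1 JUNB with 82.3 FPKM came second, JUN with 48.1 ± 27.6, MAFF with 48.5 ± 10.7 and JUND with 42.0 ± 6.40 FPKM overlapped (SD, n = 3 each), and BATF3 with 4.52 FPKM lay above FOSB with 3.50 FPKM, again with overlapping values.

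The tested genes whose pattern over the 6 libraries was most like that of JUNB, the gene with the largest rise, were TRIB1, LIMD2 and ZSCAN30, each with a Pearson's r of 0.9998. TRIB1 encodes a pseudokinase that works with the ubiquitin ligase COP1. For MAPK8, the gene with the lowest change, they were MED21, ERCC6L and YWHAB, each with an r of 0.999. Such values mostly reflect the difference between the groups that these libraries share, and 236 tested genes had an r of at least 0.99 with JUNB and 79 with MAPK8.

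Other bZIP factors that pair with FOS and JUN proteins moved in both directions. Of 13 listed ATF, BATF, JDP and MAF genes 7 were tested, with a median change of 0.14. Of these, 3 were higher and 2 lower, beside 25.0% and 12.7% of all tested genes. Without replicate 2, 3 were higher and 3 lower, beside 36.8% and 23.9% of all tested genes. Without NC replicate 1, 1 was higher and 2 lower, beside 15.6% and 6.55%. BATF2, a relative of BATF3, had 0.404, 0.346 and 0.319 FPKM in NC and 2.59, 2.50 and 3.42 FPKM in sh-circRIMS1, whereas BATF was listed at 0 in every library. BATF2 is counted among the higher genes, but it passed the filter only through its sh-circRIMS1 values, so its call is a description and not support. JDP2, a repressor that binds JUN, fell by 0.57 on the log2 scale, from 4.16 to 2.64 FPKM, and the small MAF gene MAFG by 0.25, from 26.6 to 22.3 FPKM. The other called genes, ATF3 and ATF7, were higher and are named after their values were seen. The call of MAFG was lost without NC replicate 2.

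Small MAF proteins act through CNC and BACH partners. Of 6 such genes 4 were tested, 2 were higher and 0 lower, beside 25.0% and 12.7% of all tested genes. At an unadjusted limma p under 0.05 also 0 were lower, beside 1784 of all 10408 tested genes. NFE2L3, a CNC activator, rose by 1.73 on the log2 scale (limma adjusted p = 4.92e-05), with 2.83 ± 0.221 FPKM in NC and 10.5 ± 0.602 FPKM in sh-circRIMS1 (SD, n = 3 each). BACH1, a repressor of the same elements, had 20.4, 19.1 and 19.0 FPKM in NC and 28.6, 55.4 and 32.5 FPKM in sh-circRIMS1. It rose by 0.92 on the log2 scale, a call lost without any 1 of the NC libraries, and by 0.63 without replicate 2 (limma adjusted p = 1.63e-05). Without replicate 2, 3 of these genes were higher and 1 lower, beside 36.8% and 23.9% of all tested genes.

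Of 23 genes of the MAP kinase cascades that act on FOS and JUN, 21 were tested, 4 were higher and 2 lower, shares of 19.0% and 9.52% that lay near those of all tested genes. These counts were 5 and 4 without replicate 2, beside 36.8% and 23.9% of all tested genes. They were 2 and 1 without NC replicate 2, beside 15.8% and 6.6%. The p38 kinase gene MAPK11 rose from 6.93 to 10.9 FPKM and MAPK3, which encodes ERK1, from 12.5 to 16.3 FPKM. MAP2K3, an activator of p38 kinases, fell from 17.8 to 12.3 FPKM. MAPK9, the gene of JNK2 and a relative of MAPK8, was chosen after its values were seen and stood at 11.4 and 11.2 FPKM (limma adjusted p = 0.841).

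Dual-specificity phosphatases remove the phosphates that these kinases carry. Of 10 genes 8 were tested, 3 were higher and 1 lower, beside 25.0% and 12.7% of all tested genes. Of the higher genes DUSP10 and DUSP16, which act on JNK and p38, had 2.30 and 2.25 FPKM in sh-circRIMS1 and 0.530 and 0.998 FPKM in NC on average. Both passed the filter only through their sh-circRIMS1 values, so their calls are not support. At a mean FPKM of at least 5, 1 of 6 tested phosphatase genes was higher, DUSP5, named after its values were seen, and 1 lower. These are 16.7% each, near the 21% and 16% of all 7004 genes tested at that filter. DUSP14 fell from 15.6 to 7.56 FPKM. Without replicate 2, 6 of 8 were higher and 2 lower, beside 36.8% and 23.9% of all tested genes. Of SRF and 5 cofactors, which drive FOS transcription after a growth signal, SRF fell from 16.6 to 13.6 FPKM and MKL1 rose from 3.34 to 4.02 FPKM. Both calls were lost without any 1 of the NC libraries and without sh-circRIMS1 replicate 3, SRF also without replicate 1 and after rescaling to TPM, and MKL1 also under median-of-ratios scaling, quantile normalization and no filter.

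Of 14 genes that control the turnover of FOS and JUN protein or messenger RNA, 3 were higher and 3 lower. These are 21.4% each, beside 25.0% higher and 12.7% lower of all tested genes. TRIB1 rose from 3.62 to 6.86 FPKM and COP1, the ubiquitin ligase for JUN, from 3.10 to 3.84 FPKM. KHSRP, which promotes decay of messages with AU-rich elements, fell from 59.3 to 50.1 FPKM. The COP1 call was lost without any 1 of the NC libraries, without sh-circRIMS1 replicate 3, and under both scalings between libraries. KHSRP was not called without NC replicate 1 or 2. These counts moved with the library left out, as did those of all tested genes. Without replicate 2, 6 of the genes were higher and 4 lower, beside 36.8% and 23.9% of all tested genes. Without NC replicate 1, 1 was higher and 0 lower, beside 15.6% and 6.55% of all tested genes. The counts were the same without NC replicate 2, beside 15.8% and 6.6%. Without NC replicate 3, 1 was higher and 1 lower, beside 15.6% and 6.62%.

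Among textbook AP-1 target genes the share called higher lay near that of all tested genes. Of 21 genes 17 were tested, 5 were higher, 1 lower and 11 did not pass, with a median change of 0.26. These are 29.4% higher and 5.88% lower, beside 25.0% and 12.7% of all tested genes. IL6, an inflammatory cytokine, had 8.87, 8.50 and 8.73 FPKM in NC and 31.7, 34.8 and 31.6 FPKM in sh-circRIMS1. It rose by 1.85 on the log2 scale (limma adjusted p = 1.88e-05). PLAU, the urokinase-type plasminogen activator, rose from 109 ± 1.59 to 190.0 ± 6.93 FPKM, and TIMP1, an inhibitor of metalloproteinases, from 88.5 ± 1.91 to 178.6 ± 13.8 FPKM (SD, n = 3 each). For TIMP1 the sh-circRIMS1 libraries had 184, 163 and 189 FPKM. The other called genes, named after their values were seen, were PLAUR and LIF, which were higher, and VIM, which was lower. Without replicate 2, 8 of 16 tested targets were higher and 4 lower, beside 36.8% and 23.9% of all tested genes. Their median was then 0.15. IL6 and others of these genes also answer to NF-kB and to other factors, and the binding of AP-1 was not measured.

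**Figure D4:**
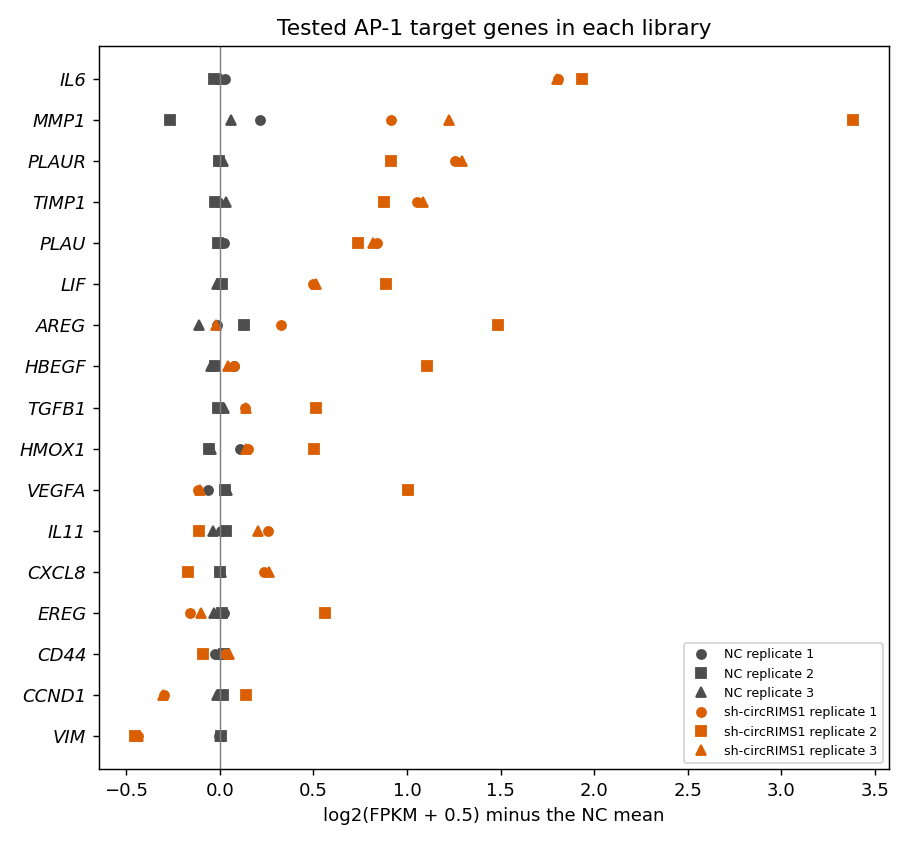
Log2(FPKM + 0.5) minus the NC mean for the 17 tested AP-1 target genes, with NC libraries in grey, sh-circRIMS1 libraries in orange and marker shapes for replicates 1 to 3. IL6, PLAU and TIMP1 show 3 sh-circRIMS1 libraries together to the right of 0, while MMP1, AREG, HBEGF and VEGFA show replicate 2 apart.

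**Figure D5:**
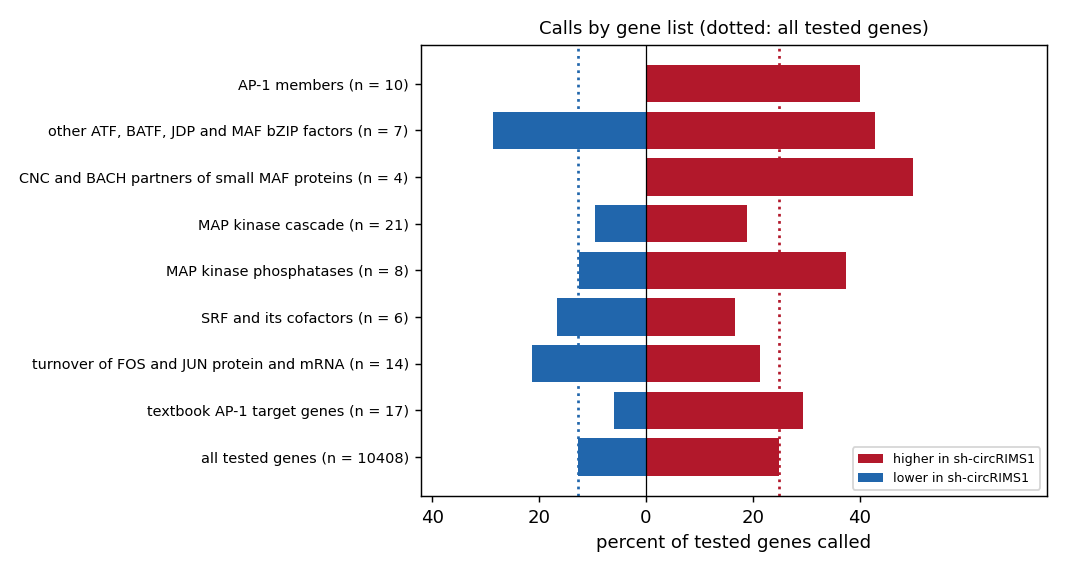
Percent of the tested genes of each list called higher (red, right) and lower (blue, left) in sh-circRIMS1 by limma, with dotted lines at the shares of all tested genes, 25.0% higher and 12.7% lower. Of the 10 AP-1 and MAPK8 genes 40% were higher and 0% lower, and the MAP kinase cascade lay near the dotted lines.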

How the data were processed

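Total RNA of 6 T24 libraries was sequenced. Per the labels' protocols, extraction used TRIzol, followed by removal of ribosomal RNA, an RNase R step against linear RNA and a directional KAPA library kit. Since linear messenger RNAs were abundant in the values, it is open whether RNase R was applied to these libraries. The deposited file gives FPKM by gene and library. The submitters' processing notes name StringTie, HISAT2, Trimmomatic, Cufflinks, DESeq and HTSeq. The sources used here name no versions, genome build or strand handling, so reads of overlapping or antisense genes cannot be told apart.

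The knockdown columns, named si_circ, were matched to the sh-circRIMS1 titles by name and number. The 10408 of 20030 genes whose mean FPKM reached 1 were tested with limma 3.58.1 (R 4.3.3). Values were log2(FPKM + 0.5), the empirical Bayes step had a trend, group was the only term, and tests were two-sided with Benjamini-Hochberg adjustment over all tested genes at 0.05. Changes are sh-circRIMS1 minus NC and understate those of low genes. The procedure was tested on simulated data. Shares within a family were given an exact permutation test. The p-values measure the spread between these samples, which may be technical. Replicate numbers did not pair the libraries.

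The 10 genes and the 10 other lists were chosen with earlier results of these data known. All 10 genes are named, and of each list up to 3 called genes with the smallest p. Some listed genes are not reported here. RFWD2 is COP1 in the table. Sequences are from RefSeq windows of GRCh38.p14. Alternatives covered the pseudocount, filter, scaling, array weights, replicate block and each left-out library.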

Additional observations from a re-analysis of the deposited data

How the results depend on the processing

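Over 15 alternatives JUNB kept its call and a change between 1.35 and 1.53, and BATF3, which could be fitted in 14 since it lies below a mean FPKM of 5, kept its call with 0.83 to 1.23. The number of the 10 genes called was 4, and from 2 to 6 when 1 library was left out. Over all genes 3920 were called, against 2592 at a mean FPKM of at least 5, 6407 with array weights and 2320 to 6277 when 1 library was left out. Median-of-ratios scaling gave 1787 higher and 2429 lower, and quantile normalization 1588 and 2085, against 2598 and 1322 as deposited. The changes of FOS and FOSL2 turned to -0.0469 and -0.121 under median-of-ratios scaling and to -0.318 and -0.0248 under quantile normalization, and that of FOSL2 to -0.0279 with array weights. JUN was at 0.0127 after rescaling to TPM. With 1 library left out, FOS ran from -0.0663 to 0.179, FOSL2 from -0.0352 to 0.0297, JUN from -0.447 to 0.233 and MAFF from -0.0223 to 0.25. These 4 genes passed in none of these fits, apart from JUN, called lower with array weights and without sh-circRIMS1 replicate 2. Without that library the shares of FOS and FOSB in their family changed by 0.0113 and -0.0209 percentage points, against -0.107 and 0.418 with it, and with any 1 library left out these ran from -0.199 to 0.0113 and from -0.0209 to 0.686. The cause was not tested.

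Same-numbered libraries did not deviate together (correlations of -0.026, -0.003 and -0.04), and 0 of 6 libraries correlated best with its own number. With the replicate block 3138 genes were called, 4 of the 10 genes among them, and of the 22 named list genes MKL1 and COP1 were not called (limma adjusted p = 0.105 and 0.0677). Of 323 refits of 22 named list genes, 296 kept their direction and call, 27 kept direction only and 0 reversed. FPKM without counts give no depth-based interval, which limits FOS, FOSB and BATF3 most.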

Other observations

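The AP-1 target genes that stood farthest above the other sh-circRIMS1 libraries in replicate 2 were 3 growth factor genes and a collagenase gene. They are the listed genes that passed the filter and lay at least 1 above the mean of replicates 1 and 3 on the log2 scale, a rule chosen after the values were seen. This held for 4 of the 17 tested targets, MMP1, HBEGF, AREG and VEGFA, and for ATF3 among the other bZIP factors, beside 1.1% of all tested genes. MMP1 passed the filter only through replicate 2. The rule was set on the same values that it picks out, so these counts are a description and not support. MMP10, DUSP8 and CREB5 also lay that far above in replicate 2, by 1.79, 1.37 and 1.17, but were below the filter. HBEGF and AREG, ligands of the EGF receptor, had 22.1, 45.7 and 21.6 FPKM and 2.32, 5.80 and 1.72 FPKM in sh-circRIMS1 replicates 1, 2 and 3, with 21.0 and 1.76 FPKM on average in NC. VEGFA, the vascular growth factor, had 29.7, 65.3 and 29.9 FPKM, with 32.3 FPKM on average in NC, and MMP1, a collagenase, had 1.20, 8.95 and 1.62 FPKM, with 0.414 FPKM on average in NC. ATF3, a stress-induced partner of JUN, had 8.45, 19.5 and 9.11 FPKM, with 4.23 FPKM on average in NC. For MMP1 and ATF3 replicates 1 and 3 also lay above every NC library, whereas for HBEGF they lay near the NC mean. For VEGFA they lay below every NC library. Without replicate 2 VEGFA was called lower, with a change of -0.11 (limma adjusted p = 0.0362). Of the 17 tested targets, replicate 2 was the highest sh-circRIMS1 library for 10 and the lowest for 7. These are 58.8% and 41.2%, beside 45.7% and 43.5% of all tested genes. The part of the high JUN value of replicate 2 in these values was not tested.

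Other listed genes lay lower in replicate 2. ZFP36L2, which promotes decay of messages with AU-rich elements, had 93.0, 43.1 and 95.6 FPKM in sh-circRIMS1 replicates 1, 2 and 3, with 41.7 FPKM on average in NC. KRT8, a simple epithelial keratin, had 243, 111 and 241 FPKM, with 310 FPKM on average in NC. With 1 library of this kind, these values have no replicate check.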
